A study of Mus musculus with 3 samples.

Results

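miR-126a is a microRNA (miRNA) of endothelial cells, the cells that line blood vessels, and this account follows its 2 mature arms in the postnatal mouse heart. The arms were taken by their miRBase accessions, MIMAT0000137 for miR-126a-5p and MIMAT0000138 for miR-126a-3p, and each had 1 row among the 2049 rows of the count table. Hearts came from wild-type C57BL/6 mice on postnatal day 1 (P1), day 7 (P7) or day 28 (P28), with no treatment named and 1 small RNA library at each age. The study describes the tissue as cardiac ventricles, and the labels call it heart. Library totals, the sums of all rows of the table, ranged from 1944237 reads at P1 through 2465680 at P7 to 2842526 at P28. Levels are given in CPM, the reads of a row per 1000000 reads of its library. The intervals beside them cover counting error only, at 95%. The spread between hearts is not known from single libraries and no test between ages could be made, so the differences below are differences between libraries. In a whole heart, fewer cells of a type and less of an RNA in each cell cannot be told apart.

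A miRNA is cut from a hairpin precursor whose 5′ and 3′ sides each give a short strand, the 5p and the 3p arm. One arm is usually kept by the Argonaute protein and guides it to messenger RNAs, mainly through its seed, bases 2 to 8, while the other arm is mostly degraded. miR-126 is made from an intron of Egfl7, a gene for a protein that endothelial cells secrete. In endothelial cells its 3p arm is known to lower Spred1 and Pik3r2, which restrain signalling by vascular endothelial growth factor, and its 5p arm is known to act on Dlk1. Platelets and blood progenitors hold miR-126 as well. The table pairs accessions with no names, so other endothelial or blood miRNAs could not be set beside the 2 arms, and the endothelial label was not checked here with other markers.

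The hairpin and the mature 3p arm are shown because almost all reads described here belong to that arm. RefSeq (GRCm38.p6, the assembly of mm10) places the hairpin Mir126a on the plus strand at chr2:26591357-26591429, a length of 73 bases. The mature 3p arm lies at chr2:26591402-26591423, which is position 46 to 67 of the hairpin. In the hairpin, capitals mark the mature 3p arm, and in the mature arm they mark the seed.
Mir126a hairpin: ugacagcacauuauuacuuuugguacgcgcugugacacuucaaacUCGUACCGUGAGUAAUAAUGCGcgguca
miR-126a-3p: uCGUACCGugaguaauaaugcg

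The 3p arm is 22 bases long, begins with U and holds 45.5% G and C. Of the 1738 mature entries in the RefSeq table used here, miR-126a-3p was the only name with the seed CGUACCG. In the GENCODE vM21 annotation, Egfl7 runs on the same strand at chr2:26580014-26593120, and 9 of its 19 transcripts span the hairpin. The hairpin lay in an intron in 8 of these, at chr2:26591064-26591663 in 6 transcripts and at chr2:26591064-26592117 in 2. In the remaining 1, a retained-intron transcript, an exon covered it.

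A second hairpin, Mir126b, overlaps Mir126a on the minus strand at chr2:26591363-26591420, so that all 58 of its bases lie under Mir126a. Its mature arm miR-126b-5p, at chr2:26591399-26591420, shares 19 of its 22 positions with miR-126a-3p. Because it is read from the opposite strand, the shared bases are reverse complements of each other. They are shown in capitals in both strands because the reads of the table can be assigned to one of the strands only by their orientation.
miR-126a-3p: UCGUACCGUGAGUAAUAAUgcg
miR-126b-5p: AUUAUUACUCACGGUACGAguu

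Each arm of miR-126a had a near copy elsewhere in the table, that is, a row of another accession with the same counts to within 1% in every library. For miR-126a-3p the copy was MIMAT0029894, which held 25432 reads at P1, 74149 reads at P7 and 63901 reads at P28. These exceed the reads of the 3p arm itself by 3, 9 and 1. For miR-126a-5p it was MIMAT0029895, with 1015, 2461 and 2211 reads, an excess of 1, 5 and 4. No other row with at least 300 reads matched either arm. The names of the copies are not given in the table, and whether counting used the strand of the reads is not stated for these libraries. Whether the copies are the arms of miR-126b was therefore not tested. Nor was it tested whether the rows of miR-126a themselves hold reads of the opposite strand. The levels and arm ratios below are those of the rows as counted. Through the copies, the reads of both arms enter the library total a second time in the table as deposited. This second entry was a further 1.36% of the P1 library, 3.11% of the P7 library and 2.33% of the P28 library. Repeated counts were not limited to miR-126a. Without stem-loop rows and the later of 2 matching accessions, 83.8% of the P1 total remained, 86.8% at P7 and 83.5% at P28.

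miR-126a-3p was among the most abundant miRNAs of the heart. It had 25429 reads at P1, 74140 reads at P7 and 63900 reads at P28. The levels were 13079 CPM at P1 (95% Wilson interval 12920 to 13240), 30069 CPM at P7 (29856 to 30283) and 22480 CPM at P28 (22308 to 22653). The level was lowest at P1 and, by library totals, highest at P7, whereas TMM scaling and DESeq2 size factors placed P28 highest. No 2 of the intervals overlap. The arm made up 1.31% of the P1 library, 3.01% of the P7 library and 2.25% of the P28 library. It stood at rank 17 of all rows at P1, rank 9 at P7 and rank 10 at P28. With stem-loop rows and the later of 2 matching accessions left out and the rows of each accession summed, it stood at rank 11, 6 and 7. This table, with 1 row for each mature accession, leaves out its near copy.

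miR-126a-5p was far less abundant and had the same order of ages under each of these scalings. Its row held 1014 reads at P1, 2456 reads at P7 and 2207 reads at P28, which gave 522 CPM at P1 (490 to 555), 996 CPM at P7 (957 to 1036) and 776 CPM at P28 (745 to 809). The intervals of the 3 libraries do not overlap. Among all rows it had rank 94 at P1, rank 72 at P7 and rank 75 at P28. With 1 row for each mature accession, it had rank 68, 50 and 50.

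**Figure D1:**
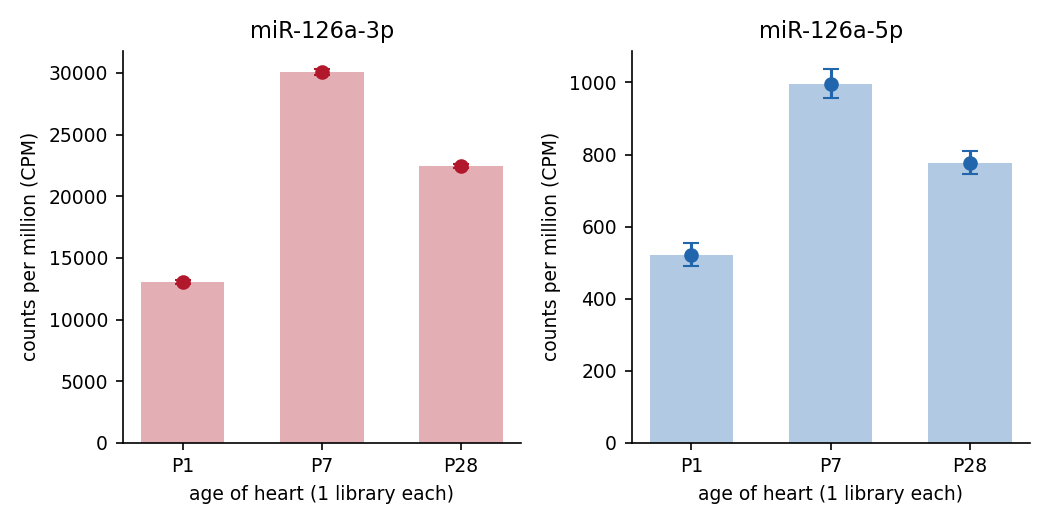
Levels of the 3p arm (left) and the 5p arm (right) of miR-126a in CPM, on separate linear axes from 0, with 1 library at each age. Bars and points give the level and error bars the 95% Wilson interval for counting error. Both arms are lowest at P1 and, by library totals, highest at P7 (30069 CPM for 3p and 996 CPM for 5p), while TMM and DESeq2 size factors place P28 highest.

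The comparison of P7 with P1 covers the first postnatal week, the time in which heart muscle cells leave the cell cycle. miR-126a-3p gained 16990 CPM between these libraries, and its level was 2.30-fold higher at P7 (95% Clopper-Pearson interval 2.27 to 2.33), a log2 ratio of 1.20. miR-126a-5p gained 475 CPM and was 1.91-fold higher (1.77 to 2.06), a log2 ratio of 0.93. Thus 1 of the 2 arms passed a 2-fold difference, against 10.4% of the 317 rows averaging 10 CPM or more that were at least 2-fold higher at P7. The interval of the 5p arm includes 2-fold. The median row was near no change between these libraries, with a log2 ratio of 0.02. Of the other rows, 94.6% had a lower log2 ratio than miR-126a-3p and 88.3% a lower one than miR-126a-5p. The 317 rows include both arms and their near copies. With 1 row for each mature accession, these shares were 94.0% and 87.2%, and 9.9% of 283 accessions were at least 2-fold higher. The difference of the 3p arm passed 2-fold under each scaling tried, whereas the 5p arm reached it under TMM scaling (log2 ratio 1.00) and when the 10 most abundant rows were left out of the total (1.08). The share of rows at least 2-fold higher was 12.0% under TMM and 14.5% without the 10 rows, which include miR-126a-3p and its near copy.

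Between P1 and P28 both arms were higher in the older heart under each scaling, by less than 2-fold when library totals were used. miR-126a-3p was 1.72-fold higher at P28 than at P1 (1.69 to 1.74, log2 ratio 0.78). miR-126a-5p was 1.49-fold higher (1.38 to 1.61, log2 ratio 0.57). Neither arm passed 2-fold, a difference that 12.3% of the 317 rows passed in the same direction. These values are relative to library totals, and the typical row took a smaller part of the P28 library, with a median log2 ratio of -0.64 against P1. Relative to that median, miR-126a-3p stood 1.42 higher on the log2 scale and miR-126a-5p 1.21 higher. Of the other rows, 85.1% had a lower log2 ratio than the 3p arm and 81.0% a lower one than the 5p arm. TMM scaling moved the median by 0.62, and both arms were then past 2-fold, with log2 ratios of 1.41 for 3p and 1.20 for 5p, as were 24.0% of the 317 rows under that scaling.

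The direction after P7 depended on the scaling. By library totals, miR-126a-3p was lower at P28 than at P7, with a log2 ratio of -0.42 (-0.43 to -0.40) and a difference in level of -7589 CPM. miR-126a-5p was lower too, with a log2 ratio of -0.36 (-0.44 to -0.28) and a difference of -220 CPM. Neither arm passed 2-fold, whereas 39.1% of the 317 rows were at least 2-fold lower at P28. The median row had a log2 ratio of -0.64, so that the 3p arm stood 0.22 and the 5p arm 0.28 above the median on the log2 scale. TMM scaling moved the median by 0.56, and the ratios of the arms turned to 0.14 for 3p and 0.20 for 5p. With DESeq2 size factors they were 0.23 and 0.29. When the 10 most abundant rows were left out of the total, they were -0.079 and -0.018. The order of rows by their log2 ratio does not depend on such a scaling, and here 58.5% of the other rows had a lower ratio than miR-126a-3p and 60.4% a lower one than miR-126a-5p. In this order the arms stood near the middle of the rows after P7, having stood near the top between P1 and P7.

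**Figure D2:**
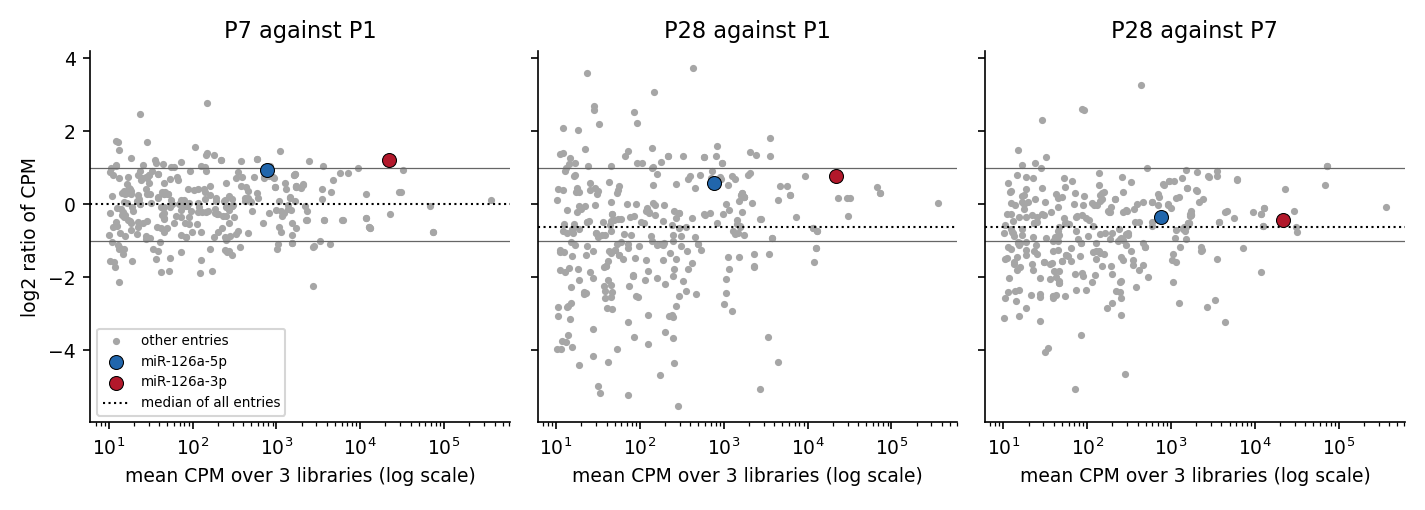
Log2 ratio of CPM between 2 libraries (vertical axis) against mean CPM over the 3 libraries (log scale) for the 317 rows averaging 10 CPM or more. Solid lines mark 2-fold, the dotted line the median. The arms of miR-126a lie at 1.20 (3p) and 0.93 (5p) for P7 against P1, well above the median of 0.02, and at -0.42 and -0.36 for P28 against P7, above a median of -0.64. The last 2 values are by library totals and turn positive under TMM and DESeq2 size factors.

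**Figure D3:**
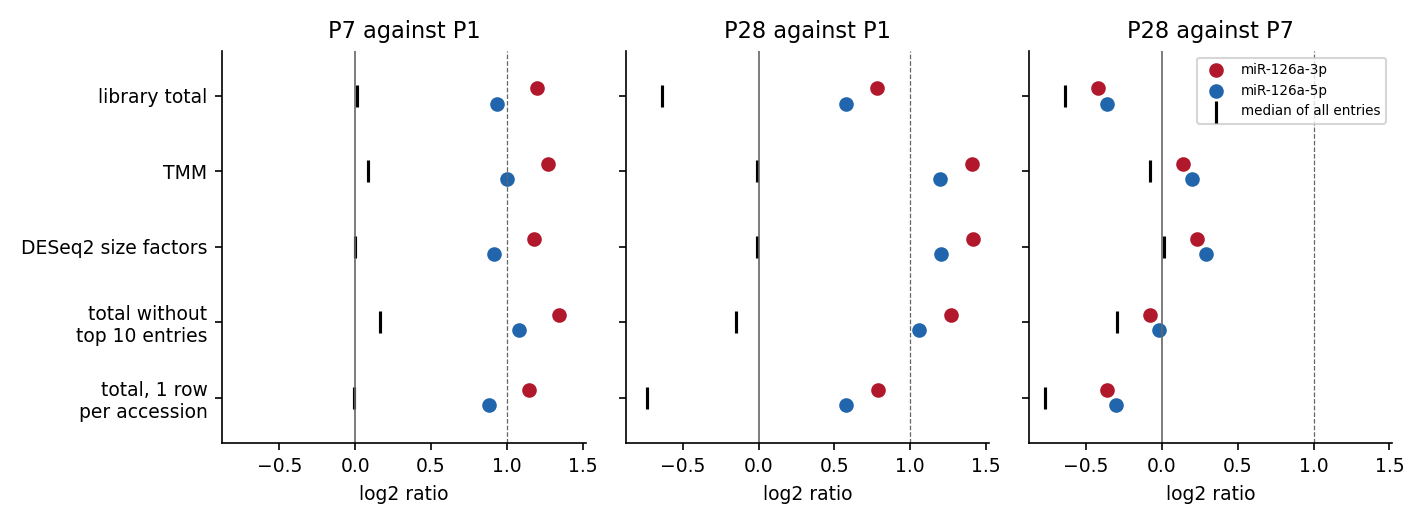
Log2 ratios of the 3p and 5p arms between ages under 5 ways to scale the libraries, with the median of all rows as a black bar. The solid line is no change and the dashed line 2-fold. In the panel of P28 against P7 the arms lie below 0 by library total (-0.42 and -0.36) and above 0 under TMM (0.14 and 0.20) and DESeq2 size factors (0.23 and 0.29).

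The ratio of the arms is read within a library and does not depend on its total. At P1 there were 25.1 reads of miR-126a-3p for each read of miR-126a-5p (23.6 to 26.7). At P7 there were 30.2 (29.0 to 31.4), and at P28 there were 29.0 (27.7 to 30.2). The 5p arm thus held 3.83% of the 26443 reads of both arms at P1 (95% Clopper-Pearson interval 3.61 to 4.07). It held 3.21% of 76596 reads at P7 (3.08 to 3.33) and 3.34% of 66107 at P28 (3.20 to 3.48). The share was highest at P1, and its interval there does not overlap those at P7 and P28, which overlap each other.

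The shift between the arms was small beside the change in their levels. From P1 to P7 the ratio of 5p to 3p moved by -0.27 on the log2 scale (Fisher conditional interval -0.38 to -0.16), as the ratio between the ages was larger for the 3p arm. From P1 to P28 it moved by -0.21 (-0.32 to -0.10). From P7 to P28 the difference was 0.06 (-0.02 to 0.15), which is not distinguishable at this depth. None of the 3 changes reached 2-fold. As a background, the ratio of any 2 mature accessions averaging 10 CPM or more was followed in the same manner, over the 39903 pairs that 283 accessions give. Among these pairs, 39.0% moved at least 2-fold relative to each other between P1 and P7, 66.7% between P1 and P28 and 53.5% between P7 and P28. The 2 arms of miR-126a kept closer together than most pairs, as 81.9%, 93.0% and 97.0% of the pairs moved more in these comparisons. The pairs were any 2 accessions and were not chosen as arms of the same hairpin. They do not show how close the arms of other hairpins kept. Pairs that share an accession or a library are not independent, and the shares are a description.

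**Figure D4:**
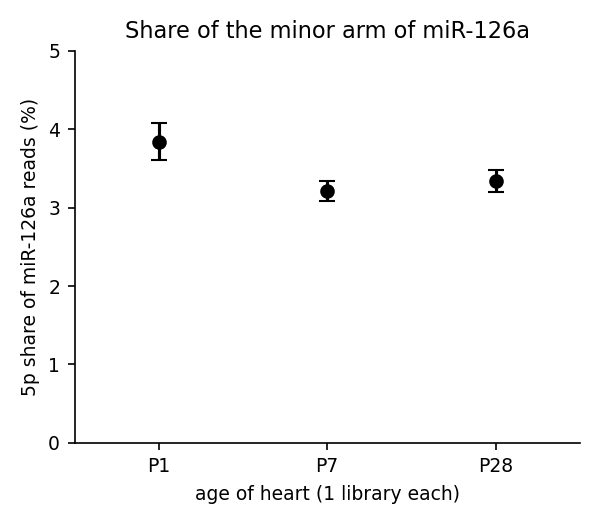
Share of the 5p arm in all reads of miR-126a (vertical axis, percent, from 0) in the library of each age, with 95% Clopper-Pearson intervals. The P1 share of 3.83% lies above those of 3.21% at P7 and 3.34% at P28.

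The course of each arm over the 3 ages was compared with that of the other mature accessions. Log2 levels were centred on their mean over the ages, and the distance between 2 courses was taken over the 3 libraries, for 136 accessions averaging 100 CPM or more. The distance between miR-126a-3p and miR-126a-5p was 0.20, against a median of 1.19 from the 3p arm and 1.03 from the 5p arm to the other accessions. Only 1 accession lay nearer to the 3p arm than the 5p arm did. This was MIMAT0000131, at a distance of 0.17. Its levels were 7165, 13752 and 12321 CPM at P1, P7 and P28, in a table with 1 row for each mature accession, in which those of miR-126a-3p were 15611, 34630 and 26916 CPM. For the 5p arm, 3 accessions lay nearer than the 3p arm. The nearest was MIMAT0000126, at 0.07, with 4852, 8481 and 6826 CPM, beside 623, 1147 and 930 CPM of miR-126a-5p in the same table. The 5 nearest accessions lay between 0.17 and 0.29 from the 3p arm, and between 0.07 and 0.25 from the 5p arm. With 3 points to a course, a small distance describes the shape and is no measure of a shared source.

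**Figure D5:**
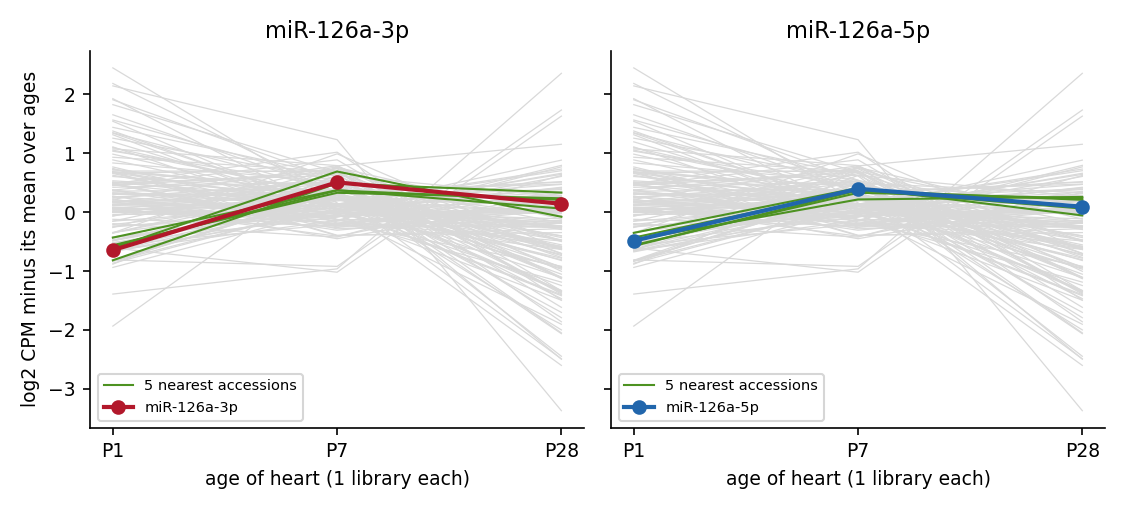
Log2 CPM minus its mean over the ages for 136 mature accessions (grey), the 3p arm (left, red) or the 5p arm (right, blue) and the 5 accessions nearest to it (green), with 1 library at each age. By library totals both arms run from a low at P1 to a high at P7 and a lower value at P28, which is above P7 under TMM and DESeq2 size factors, and their nearest accessions lie within 0.29 of the 3p arm and 0.25 of the 5p arm.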

How the data were processed

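Small RNA libraries of P1, P7 and P28 hearts were made with a NEBNext kit, 1 for each age. The deposited values are raw read counts per miRBase accession, made by the authors without normalization. Per the labels, bcl2fastq, TopHat and mm10 were used (versions not given in the sources used here). The study describes counting with Bioconductor packages for RNA-seq reads on known genes, without naming the small RNA libraries. No molecular identifiers are named, and how reads that fit several places were treated is not given.

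Columns were matched to ages by the age code in their names. From the counts, CPM by library total were computed. Log2 ratios used a pseudocount of 0.5 reads, which understates changes of rows with few reads. Rows with a mean of at least 10 CPM served as background, and a row was called past the threshold at 2-fold. edgeR's quasi-likelihood test could not be fitted with 1 library per age. Alternatives were TMM (edgeR 4.0.16), DESeq2 1.42.0 size factors, the total without the 10 most abundant rows, and 1 row per mature accession (stem-loop rows and the later of 2 matching accessions left out, rows of an accession summed). Other filters, folds and a pseudocount of 5 reads were also tried. Scripts were tested on simulated data.

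Named were both arms, rows matching them, and the accessions with the nearest course, of which the nearest to each arm is printed. The members and lists were chosen with earlier results of these data known. Lists of miRNAs of other cell types and the pairing of other arms into duplexes had been planned by name and were not applied, as accessions carry no names. All pairs of accessions took the place of duplexes, a choice made after the table was seen. Sequences are from RefSeq (GRCm38.p6). Analyses used R 4.3.3, Python 3.11.15, numpy 2.4.6, pandas 2.3.3 and scipy 1.17.1, and plots matplotlib 3.10.9.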

Additional observations from a re-analysis of the deposited data

How the results depend on the processing

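Each age had 1 library, so no replicate could be left out, and an interval that excludes no change compares libraries, not ages. The depth limits mainly miR-126a-5p, with 1014 reads at P1. No paired analysis was possible because there is only 1 library for an age. Each arm has 1 row, so keeping only the first row changes nothing, and the ranking of duplexes was not run. A pseudocount of 5 reads left all 12 log2 values of the arms within their intervals. In 4 cases the direction turned, all at P28 against P7, where TMM gave 0.14 for 3p and 0.20 for 5p, and DESeq2 size factors gave 0.23 and 0.29. These scalings place the median row near 0, which moves every ratio with P28 upward.

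Levels of the 3p arm at P1, P7 and P28 were 11145, 26856 and 29538 CPM under TMM, 11360, 25763 and 30208 with DESeq2 size factors, 43288, 110112 and 104275 per 1000000 reads outside the 10 most abundant rows (which include the 3p arm and its near copy, so that its own reads are not in that total), and 15611, 34630 and 26916 CPM with 1 row per accession. Levels of the 5p arm were 444, 890 and 1020 CPM, then 453, 853 and 1043, then 1726, 3648 and 3601, then 623, 1147 and 930. For the 3p arm, the log2 ratio at P7 against P1 was 1.27 under TMM, 1.35 without the 10 rows and 1.15 with 1 row per accession. At P28 against P1 it was 1.41 under TMM, 1.41 with DESeq2 size factors and 1.27 without the 10 rows, and at P28 against P7 it was -0.079 without the 10 rows and -0.36 with 1 row per accession. For the 5p arm, the ratio at P7 against P1 was 1.08 without the 10 rows. At P28 against P1 it was 1.20 under TMM, 1.20 with DESeq2 size factors and 1.06 without the 10 rows, and at P28 against P7 it was -0.018 without the 10 rows.

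The background moved as well. By library totals, 33 rows were 2-fold higher and 37 lower from P1 to P7, 39 and 129 from P1 to P28, and 10 and 124 from P7 to P28. TMM gave 38 and 32, 76 and 83, and 40 and 72. DESeq2 size factors gave 31 and 38, 76 and 83, and 46 and 63. Without the 10 rows the numbers were 46 and 28, 65 and 90, and 27 and 92. With no filter they were 225 and 206, 183 and 390, and 128 and 390 of 945 rows, and with 100 CPM 18 and 18, 19 and 55, and 3 and 50 of 167. At 1.5-fold they were 75 and 77, 59 and 161, and 32 and 166, and at 4-fold 2 and 2, 10 and 65, and 4 and 45. The median log2 ratio moved by 0.15 without the 10 rows at P7 against P1.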
